A study of Sus scrofa with 22 samples.

Results

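Many miRNAs in pig fat were read with A beyond the end of their most abundant sequence. The sequences described here are those that equal the leading sequence of a miRNA name, which is the sequence with the most reads over 22 libraries, plus 1 to 3 bases at the 3' end that are all A. They numbered 206 sequences of 126 miRNAs, out of 8489 listed sequences and 250 miRNA names, and held 1191713 reads, or 3.22% of all named reads. Since total reads chose the leading sequences, the levels below are descriptions with no test.

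The 22 libraries were made from fat under the skin of female pigs aged 6 months, and the labels name no treatment and no allele. Fat that the labels call thick or thin was sampled from 5 and 2 Hampshire, 4 and 3 Pietrain and 4 and 4 Large White pigs. Each library is whole tissue from a small RNA kit, size-selected on a gel. The labels give the fat class under a tag named for loin weight and do not say how thickness was measured.

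A miRNA can carry bases at its 3' end that its gene does not encode. Terminal nucleotidyltransferases add them: TENT2, also called GLD-2, adenylates miR-122 in mouse and human liver, TENT4B adenylates miR-21 in human cells, and TUT4 and TUT7 add U in mouse and human cells. Dicer and trimming can also leave an end at an A that the gene does encode. In these tables an encoded A and an added A cannot be told apart, because the pig hairpins were not analysed here, so the sequences are called A-extended. The part played by the tissue, the library preparation or the read trimming was not tested.

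The sequences below, as the authors deposited them, are those on which the levels and the breed comparisons turn. The leading sequence is in lower case and the A beyond it is in capitals.
miR-125b plus 1 A: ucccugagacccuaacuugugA
miR-125b plus 2 A: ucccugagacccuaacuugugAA
miR-125b plus 3 A: ucccugagacccuaacuugugAAA
miR-152 plus 1 A: ucagugcaugacagaacuuggA
miR-152 plus 2 A: ucagugcaugacagaacuuggAA
miR-152 plus 3 A: ucagugcaugacagaacuuggAAA
miR-101 plus 1 A: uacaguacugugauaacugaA
miR-101 plus 2 A: uacaguacugugauaacugaAA
miR-27b-3p plus 1 A: uucacaguggcuaaguucugcA
miR-27b-3p plus 2 A: uucacaguggcuaaguucugcAA
miR-99a plus 1 A: aacccguagauccgaucuuguA
miR-99a plus 2 A: aacccguagauccgaucuuguAA
miR-7134-3p plus 1 A: augcggaaccugcggauacggA
let-7g plus 1 A: ugagguaguaguuuguacaguuA
miR-21 plus 1 A: uagcuuaucagacugauguugacA
miR-143-3p plus 1 A: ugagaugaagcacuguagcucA

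The next sequences are leading sequences of miRNAs that share a seed (bases 2 to 8, in capitals) and yet differed widely in A extension. They are shown so that their 3' ends can be compared. Where relatives end at different places, their A shares count an A at different positions.
miR-125b: uCCCUGAGacccuaacuugug
miR-125a: uCCCUGAGacccuuuaaccugu
miR-152: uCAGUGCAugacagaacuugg
miR-148b-3p: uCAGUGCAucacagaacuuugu
miR-148a-3p: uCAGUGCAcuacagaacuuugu
miR-23a: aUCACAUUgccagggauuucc
miR-23b: aUCACAUUgccagggauuaccacu

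The libraries held from 430712 to 3136842 named reads, and A-extended sequences took from 2.60% to 3.74% of them. The smallest count above 0 was 6 in every table, so a value of 0 can stand for up to 5 reads. Of the adipose miRNAs checked, 6 of 7 were listed in all 22 libraries, and miR-193b was not listed. Muscle miR-1 and miR-133b and epithelial miR-200a and miR-203 were not listed either, but other members of both lists were. The liver list (miR-122, miR-192 and miR-194) summed to between 393 and 24630.2 counts scaled to the library total (CPM) in Hampshire, between 9.31 and 8015 CPM in Pietrain and between 371 and 5277 CPM in Large White libraries. The skeletal muscle list summed to between 111 and 1819 CPM over the libraries, with miR-133a and miR-206 listed in all 22. The epithelium and skin list summed to between 0 and 2090 CPM, with miR-429 listed in 18 libraries. The breeds were deposited as separate tables, so breed and any difference in preparation cannot be told apart. In the authors' deposited comparison of Large White, the log2 fold changes correlated across 1989 sequences at r = -0.381 with thick minus thin by the labels, against -0.989 in Pietrain and -0.897 in Hampshire, where the sign is that of thin minus thick. With thick replicate 1 and thin replicate 1 of Large White exchanged it was -0.827, so results that use these 2 libraries are also given with them exchanged or left out. Replicates are taken as separate pigs because the labels list them as separate samples, and no 2 libraries of a group agreed within sampling noise.

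Single A extensions were the rule. Sequences with 1 A numbered 126 and held 88.7% of A-extended reads, those with 2 A numbered 61 and held 9.95%, and those with 3 A numbered 19 and held 1.35%. The forms were nested, since every miRNA with 2 A also had 1 A and every miRNA with 3 A also had 2 A. Beyond the limit of 3, miR-125b had a row with 4 A of 27 reads and miR-151-3p had one of 15 reads, while the sequences with 3 A ran from 6 reads of miR-744 to 10442 reads of miR-125b. The tables end at 25 nt, so a leading sequence of 23 nt (57 miRNAs) can show at most 2 A, one of 24 nt (5 miRNAs) only 1 A, and one of 25 nt (3 miRNAs) none.

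The members were unequal in depth. Of the 206 sequences, 66 were listed in all 22 libraries, 18 in 1 library only, and 64 had under 100 reads in all. The 12 miRNAs with the most A-extended reads held 67.5% of them. Among the 61 miRNAs whose leading sequence had at least 10000 reads, 58 had a member, against 19 of the 127 miRNAs whose leading sequence had under 1000 reads. A rare miRNA can lack a listed member only because 6 reads were needed. The fold changes in the comparisons below refer to members with enough reads to be tested, from 63 to 78 of 206.

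The share of A extension is the reads of all A-extended sequences of a miRNA per 100 reads of its leading sequence, so it passes 100% where the extended forms together outnumber the leading one. Over the 61 abundant miRNAs the median share was 4.96%, with 17 above 20%, 13 under 1% and 3 at 0. In each library the median share was taken over the 52 miRNAs with at least 100 leading reads in every library. It ran from 3.31% to 5.06% in Hampshire, from 3.81% to 5.37% in Pietrain and from 3.23% to 5.14% in Large White libraries. The breeds overlapped throughout. The same median was higher for U than for A in 22 of 22 libraries, from 5.46% to 9.06%, and lower for C and G, at most 1.12% and 0.803%. With at least 1000 leading reads required (21 miRNAs), U was above A in only 13 of 22 libraries.

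The added bases were not spread alike over miRNAs. Counted by the same rule over the whole series, 231 sequences carried U (1923555 reads), 101 carried C (292918 reads) and 93 carried G (718387 reads). A exceeded U in 24 of the 61 abundant miRNAs, and exceeded each of U, C and G in 16. The A share was grouped here by the last base of the leading sequence. That base follows from the read totals that chose the leading sequence, so the grouping is a description with no test. A form with A that had the most reads would itself be the leading sequence and end in A. The median A share was 36.9% for the 8 ending in G, 20.9% for the 10 ending in C, 15.2% for the 7 ending in A and 2.42% for the 36 ending in U. The ranges overlapped widely, from 0.505% to 136% for G, from 2.57% to 76.9% for C, from 2.22% to 92.6% for A and from 0% to 33.4% for U.

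miR-125b, a vertebrate relative of lin-4 of Caenorhabditis elegans, had the highest share. Its leading sequence had 92710 reads, and the forms with 1, 2 and 3 A had 74919, 40608 and 10442 reads. The summed share per library had a lowest value of 94.5%, a median of 108% and a highest value of 132% in Hampshire, with 121%, 139% and 165% in Pietrain and 122.3%, 143.5% and 151.99% in Large White. For every 100 reads that ended in the A, 9.06 went on past it with another base. An encoded A and an added A cannot be told apart here either. miR-125a, which has the same seed, had a share of 7.92%, and its reads with 1 A per 100 leading reads ran from 4.95 to 10.5 over all libraries.

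Among the other miRNAs with many A-extended reads, miR-143-3p, which promotes adipocyte differentiation in human cells, had the most A-extended reads after miR-125b. Its share was 9.60%, from 6.70% to 12.1% over the libraries, beside a U share of 71.4%. miR-21, found in many tissues, had an A share of 24.6%, and in the 21 libraries with at least 100 leading reads it ran from 20.7% to 28.5%. None of its 98808 A-extended reads had a longer form that went on with another base. The leading sequence of miR-21 is 23 nt long, so 3 A could not be listed.

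Several miRNAs had shares between 20% and 80%. miR-100, a relative of miR-99, had 23.8%, miR-27b-3p, which represses PPARG in human adipocytes, had 20.7%, and miR-378, encoded within the Ppargc1b gene in mouse, had 21.2%. miR-92a of the miR-17-92 cluster had 33.4%, miR-27a had 51.1% and miR-23a had 76.9%. miR-151-3p reached 48.4%, with 69.1 reads of 2 A per 100 reads of 1 A. miR-140-3p, known from cartilage in mouse, reached 71.7% and miR-7134-3p reached 37.1%.

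For a few miRNAs most reads that reached the A went on past it. miR-24-3p had a share of 27.4%, but for every 100 reads that ended in the A there were 311 that went on with another base. The figure was 255 for miR-101, whose share was 92.6%, and 135 for miR-320, whose share was 55.1%. Such longer forms outnumbered the A-extended ones in 7 miRNAs, the other four being miR-378/378b-3p, miR-186, miR-224 and miR-215. They were fewer than the A-extended reads in 58 and absent in 61. The deepest longer rows of the first 3 are printed with the A in capitals.
miR-24-3p: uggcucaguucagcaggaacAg
miR-101: uacaguacugugauaacugaAu
miR-320: aaaagcuggguugagagggcgaAu
These 3 had the most A-extended reads of the 7. The figure was 606 for miR-224 and 289 for miR-215, which had only 89 and 9 A-extended reads, and 178 for miR-378/378b-3p. In these 7, as in the 58 with fewer such reads, an A at that place also occurs inside longer reads of the same miRNA. The name addition is uncertain for them, and in the 61 without such reads an encoded A cannot be told apart either.

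At the low end, 3 abundant miRNAs had no listed A extension. miR-199ab-3p had 179979 leading reads and a U share of 15.1%, yet no A row, and at least 100 leading reads in 15 of the 22 libraries. miR-148a-5p and miR-381-3p had no row with A, U, C or G added. miR-381-3p had its leading sequence as its only listed sequence. miR-451, a red blood cell miRNA that AGO2 rather than Dicer cuts, had an A share of 0.0511% beside a U share of 21.1%. miR-181a had 0.0654%, miR-23b 0.0962% and miR-145-5p, a smooth muscle miRNA, 0.348%. The value of miR-181a rests on 18 reads in 2 libraries, Large White thin replicates 3 and 4, at 0.363% and 0.387%. That of miR-451 rests on Pietrain thick replicate 2 only (0.491%). A 0 in the other libraries can stand for up to 5 reads, so both values can be too low. The leading sequence of miR-23b is 24 nt long, so 2 or 3 A could not be listed for it.

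miR-148a-3p, which promotes adipogenesis in human cells, had the most leading reads of all names and was extended little. It had 5822640 leading reads and 10490 A-extended reads, a share of 0.180%. Per library the share ran from 0.111% to 0.177% in Hampshire, from 0.174% to 0.247% in Pietrain and from 0.157% to 0.228% in Large White. Its seed relatives were far higher, with 3.93% for miR-148b-3p and 36.6% for miR-152. The U shares followed the same order, at 0.432%, 52.1% and 101% of leading reads.

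Other members named for their abundance lay between. miR-10b, encoded in a HOX cluster, had an A share of 2.89% and a G share of 14.8%. miR-26a had 0.609%. miR-122, the liver miRNA whose adenylation is best known, had 6.97% over 28402 leading reads. Of the 16 libraries with at least 100 leading reads of miR-122, its A share was at 0 in Pietrain thick replicate 4 and ran from 3.03% to 8.30% in the others.

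The let-7 family, which restrains Hmga2 in mouse, was even in its extension. All 8 names had a member, with shares from 1.38% for miR-98 to 5.61% for let-7i-5p. let-7a had 2.39%, let-7d-5p 2.45%, let-7f-5p 2.68%, let-7g 2.99%, let-7e 3.52% and let-7c 5.30%. Each of these sequences ends in UU, and each had a U share above its A share, from 3.10% for miR-98 to 32.8% for let-7c.

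Members of a family were often unlike, but their leading sequences can end at different places. The shares then count an A at different positions, as for miR-23a and miR-23b, printed above. The 7 names of the miR-23, miR-24 and miR-27 group ran from 0.0962% for miR-23b to 76.9% for miR-23a. The 5 names of the miR-10, miR-99 and miR-100 group ran from 2.29% for miR-99a to 23.8% for miR-100. In the miR-30 family 3 names had shares from 0.840% to 7.58%, in the miR-181 family 3 of 4 names had a member, and in the miR-29 family 2 of 3. The members of miR-200b and miR-429 have 1 sequence between them, and those of miR-378/378b-3p and miR-450a begin the leading sequence of another name, so their counts are uncertain.

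Where A extensions were listed in every library, shares of one miRNA were steady beside the differences between miRNAs. Of the 50 miRNAs with a member and at least 100 leading reads in every library, 38 had A extensions above 0 in all 22. The others, with a 0 in some library, are left out of these values. In the 38, the highest library exceeded the lowest by 2.09-fold at the median, from 1.24-fold for miR-378 to 5.10-fold for miR-146a-5p. In 18 of the 38 the range stayed under 2-fold. The median coefficient of variation within groups was 14.1%.

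Hampshire fat differed from Large White fat in many A-extended sequences, in both directions, as it did in many other sequences. Forms with 2 A of miR-152 and miR-125b and the forms of miR-7134-3p and miR-99a were lower, while the 1 A forms of miR-101 and let-7g and both forms of miR-27b-3p were higher. edgeR's quasi-likelihood test, with the leading count of the same miRNA as offset, called 25 of 66 members at an adjusted p under 0.05, 10 higher and 15 lower in Hampshire. Over all 1322 sequences tested, 29.4% were called (37.5% had an unadjusted p under 0.05), 14.8% higher and 14.6% lower. The median log2 fold change of the share was -0.17 over members and 0.00 over all sequences tested. In whole tissue, a changed share within a cell type and a changed mix of cells cannot be told apart. Of 70 U-extended sequences 5 were called higher and 33 lower, and of 112 with mixed bases 1 was called higher and 48 lower.

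miR-152 is a seed relative of miR-148a. Its form with 2 A had a lowest share of 0%, a median of 1.10% and a highest share of 2.01% in Hampshire, against 2.45%, 2.74% and 3.32% in Large White. The breeds did not overlap, and all 7 Hampshire libraries lay under the Large White mean. The log2 fold change was -1.16 ± 0.22 (SE, edgeR adjusted p = 0.000506). The counts behind it were 0 to 43 reads of 560 to 2432 leading reads in Hampshire and 38 to 182 of 1144 to 6724 in Large White. The 0 belonged to Hampshire thick replicate 2, the shallowest library.

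The single A form of miR-152 went the other way. It ran from 29.7% to 57.0% in Hampshire, with a median of 38.5%, and from 24.5% to 36.0% in Large White, with a median of 30.01%. These ranges overlapped, and the log2 fold change was 0.37 ± 0.14 (edgeR adjusted p = 0.0476). Reads with 2 A per 100 reads with 1 A of miR-152 were between 0 and 3.69 in Hampshire, between 7.57 and 13.7 in Pietrain and between 8.41 and 10.8 in Large White.

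All 3 forms of miR-125b fell. The form with 2 A had shares of 23.2%, 30.4% and 36.3% (lowest, median, highest) in Hampshire and 36.9%, 45.0% and 54.4% in Large White, with no overlap. Its log2 fold change was -0.61 ± 0.11 (edgeR adjusted p = 0.000405). With 1 A the medians were 70.0% in Hampshire and 83.3% in Large White, with overlap (log2 fold change -0.24 ± 0.06, adjusted p = 0.00561), and 6 of 7 Hampshire libraries lay under the Large White mean. The call for 1 A is lost as a level over library sizes (adjusted p = 0.104), against all other reads of the name (0.306) and with no filter on the mean count (0.0649). With 3 A the log2 fold change was -0.42 ± 0.16 (adjusted p = 0.0483).

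miR-99a, which targets MTOR in human cells, was also lower in Hampshire. With 1 A its shares were 1.29%, 1.37% and 1.64% in Hampshire and 1.79%, 2.02% and 2.31% in Large White, with no overlap (log2 fold change -0.48 ± 0.10, edgeR adjusted p = 0.000918). Tested as a level over library sizes in place of a share, it was -0.022 with an adjusted p of 0.942. miR-7134-3p with 1 A had 18.4%, 21.1% and 29.5% in Hampshire and 28.6%, 31.3% and 45.9% in Large White, overlapping at the edge (log2 fold change -0.65 ± 0.13, adjusted p = 0.000896).

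On the higher side stood miR-101, which targets EZH2 in human cancer cells. Its form with 1 A had 63.5%, 72.7% and 77.9% in Hampshire and 43.4%, 47.0% and 63.9% in Large White (log2 fold change 0.50 ± 0.09, edgeR adjusted p = 0.000257). All 7 Hampshire libraries lay above the Large White mean, and 1 value of Large White reached into the Hampshire range. As given above, reads of miR-101 that go on past the A outnumber those that end in it. Reads with 2 A per 100 with 1 A ran from 38.3 to 44.0 in Hampshire, from 66.5 to 95.5 in Pietrain and from 61.7 to 80.4 in Large White.

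let-7g with 1 A had 3.11%, 3.73% and 4.88% in Hampshire and 2.46%, 2.80% and 3.12% in Large White. The ranges touched at 3.11% and 3.12%, and the log2 fold change of the share was 0.43 ± 0.08 (edgeR adjusted p = 0.000332), but tested as a level over library sizes the sequence was lower in Hampshire, at -0.56 (adjusted p = 0.0134). miR-27b-3p rose with 1 A and with 2 A. With 2 A it had 2.68%, 3.12% and 6.14% in Hampshire and 1.85%, 2.25% and 2.45% in Large White, with no overlap (log2 fold change 0.78 ± 0.16, adjusted p = 0.000748).

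The remaining named members of this comparison were miR-27b-3p with 1 A, at 0.32 ± 0.08 (edgeR adjusted p = 0.00365), and miR-24-3p with 1 A, at 0.28 ± 0.07 (adjusted p = 0.00626). The first had shares from 18.4% to 24.3% in Hampshire and from 15.7% to 17.9% in Large White, with no overlap. Its call is lost against all other reads of its name (0.056, adjusted p = 0.586) and as a level over library sizes (0.18, adjusted p = 0.309). The second had shares from 21.7% to 28.8% in Hampshire and from 18.6% to 23.5% in Large White, with overlap. Without Hampshire thin replicate 2, miR-24-3p had an adjusted p of 0.0646.

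The counts by family and by length that follow are of called members. By family, the let-7 group had 2 of 10 tested members higher and 0 lower, and the miR-23, miR-24 and miR-27 group had 3 higher and 1 lower of 9. The miR-125 group had 3 of 4 lower, the miR-148 and miR-152 group 1 higher and 3 lower of 6, and the miR-10, miR-99 and miR-100 group 2 of 7 lower. By length, 9 were called higher and 8 lower among 40 members with 1 A, and 1 higher and 6 lower among 22 with 2 A. Of 4 with 3 A, 1 was called, and it was lower. Of the miR-26, miR-30 and miR-103 groups only miR-26a with 1 A was called, at -0.50 ± 0.13 (edgeR adjusted p = 0.00722). The miR-143 and miR-145 group had 1 member tested, miR-143-3p with 1 A, which fell by 0.36 on the log2 scale.

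These counts hold some libraries that stand apart. With Large White thick 1 and thin 1 exchanged 25 members were called, and without them 20. Without Hampshire thin replicate 1, 1 of the 2 libraries richest in miR-122, 16 were called, and without both of those libraries 18, of which 15 were among the 25. The adipose list summed to between 375332 and 496008 CPM in Hampshire, between 319882 and 381325 CPM in Pietrain and between 304153 and 403062 CPM in Large White, and its part in the differences was not tested.

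Hampshire against Pietrain used the same Hampshire libraries, so the 2 comparisons are not independent. edgeR called 28 of 66 members, 6 higher and 22 lower in Hampshire, beside 37.3% of all 1322 sequences (44.9% had an unadjusted p under 0.05), 18.2% higher and 19.1% lower. The median log2 fold change of the share was -0.23 over members and 0.04 over all tested. Of 70 U-extended sequences 5 were called higher and 31 lower. Without the 2 libraries richest in miR-122, 26 were called, of which 22 were among the 28. The Pietrain libraries also stood apart in reads with G in place of a first U. As a median share over 20 abundant miRNAs these were at 0% in all 7 Hampshire libraries, between 0.234% and 0.788% in Pietrain and between 0% and 0.0169% in Large White, and their part in the comparisons with Pietrain was not tested.

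The largest difference was again miR-152 with 2 A, at 0%, 1.10% and 2.01% in Hampshire and 2.91%, 3.45% and 5.40% in Pietrain, with no overlap. Its log2 fold change was -1.67 ± 0.22 (edgeR adjusted p = 6.51e-06), which is 3.17-fold lower. miR-99a with 2 A had 0.225%, 0.297% and 0.400% in Hampshire and 0.488%, 0.562% and 0.738% in Pietrain, also with no overlap (log2 fold change -0.98 ± 0.17, adjusted p = 0.000123). As a level over library sizes miR-99a with 2 A was -0.20 with an adjusted p of 0.506.

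miR-7134-3p with 1 A stood at 18.4%, 21.1% and 29.5% in Hampshire and 30.01%, 35.5% and 47.8% in Pietrain, with no overlap and a log2 fold change of -0.81 ± 0.14 (edgeR adjusted p = 8.74e-05). miR-125b with 2 A had 23.2%, 30.4% and 36.3% in Hampshire and 34.96%, 48.0% and 58.2% in Pietrain, overlapping at the edge (log2 fold change -0.69 ± 0.12, adjusted p = 0.000117). All 7 Hampshire libraries lay under the Pietrain mean for both.

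miR-101 changed in opposite directions by length. With 2 A it had 26.5%, 28.2% and 33.4% in Hampshire and 34.6%, 38.4% and 48.8% in Pietrain, with no overlap (log2 fold change -0.52 ± 0.09, edgeR adjusted p = 0.000141), while as a level over library sizes it was 0.40 (adjusted p = 0.085) and against all other reads of the name 0.021 (adjusted p = 0.922). With 1 A it had 63.5%, 72.7% and 77.9% in Hampshire and 48.5%, 56.1% and 60.3% in Pietrain, also with no overlap. The log2 fold change with 1 A was 0.35 ± 0.09 (adjusted p = 0.00565).

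Besides miR-101, the members higher in Hampshire were let-7g, miR-191 and miR-127 with 1 A and miR-27b-3p with 1 A and with 2 A. let-7g had a log2 fold change of 0.40 ± 0.08 (edgeR adjusted p = 0.000571) for the share and of -0.64 (adjusted p = 0.00556) for the level over library sizes. miR-191 had 8.57%, 10.3% and 13.5% in Hampshire and 5.73%, 7.48% and 8.72% in Pietrain, overlapping at the edge (0.54 ± 0.11, adjusted p = 0.00077), and as a level over library sizes it was 0.13 (adjusted p = 0.634). miR-27b-3p was at 0.66 ± 0.16 with 2 A (adjusted p = 0.00298) and at 0.22 ± 0.08 with 1 A (adjusted p = 0.0335), and both forms overlapped between the breeds.

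miR-127, encoded in the imprinted DLK1-DIO3 region, had 22.7%, 33.9% and 35.8% in Hampshire and 14.1%, 23.4% and 27.5% in Pietrain, with overlap (log2 fold change 0.43 ± 0.14, edgeR adjusted p = 0.0194). This call is lost without Hampshire thin replicate 1 (adjusted p = 0.116) or Pietrain thin replicate 1 (0.052), without both libraries richest in miR-122 (0.148), as a level over library sizes (0.115) and against all other reads of the name (0.219).

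The other members lower in Hampshire lay between -1.39 for miR-152 with 3 A and -0.25 for miR-125b with 1 A on the log2 scale. They included miR-532-5p with 1 A at -0.82 ± 0.17 (edgeR adjusted p = 0.000674), miR-26a with 1 A at -0.66 ± 0.14 (adjusted p = 0.00076) and miR-27a with 3 A at -1.30 ± 0.29 (adjusted p = 0.00154). Counts of miR-152 with 3 A ran from 0 to 10 reads in Hampshire and from 10 to 53 in Pietrain. Its shares overlapped, from 0% to 1.07% in Hampshire and from 0.446% to 1.59% in Pietrain, and 2 Hampshire libraries were at 0. miR-27a with 3 A had 1 library at 0. miR-148a-3p was at -0.46 ± 0.11 with 1 A and at -0.87 ± 0.23 with 2 A, and miR-143-3p with 1 A was at -0.34 ± 0.10.

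The counts by length and by family that follow are of called members. By length, 5 were higher and 11 lower among 40 members with 1 A, 1 was higher and 7 lower among 22 with 2 A, and all 4 tested with 3 A were lower. Those 4 belong to miR-152, miR-27a, miR-125b and miR-151-3p. By family, the miR-148 and miR-152 group had 4 of 6 lower, the miR-10, miR-99 and miR-100 group 4 of 7 lower, the miR-125 group 3 of 4 lower, the let-7 group 1 of 10 higher, and the miR-23, miR-24 and miR-27 group 2 higher and 1 lower of 9.

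Few A-extended sequences were called between Pietrain and Large White. edgeR called 1 of 66 members, miR-101 with 2 A, beside 5.82% of all 1322 sequences, 4.24% higher and 1.59% lower. At an unadjusted p under 0.05 there were 10 members, and 19.2% of sequences. The median log2 fold change of the share was 0.14 over members, of which 52 were above 0, and -0.02 over all sequences tested. miR-101 with 2 A had 34.6%, 38.4% and 48.8% in Pietrain and 28.1%, 33.3% and 39.4% in Large White, with overlap. Its log2 fold change was 0.30 ± 0.08 (edgeR adjusted p = 0.0369). All 7 Pietrain libraries lay above the Large White mean. This call rests on single libraries. It is lost without Pietrain thick 2, 3 or 4 or thin 1 or 3, and without Large White thick 2 or 4 or thin 2, 3 or 4, with adjusted p from 0.0584 to 0.108. As a level over library sizes it was 0.12 (adjusted p = 0.819), and against all other reads of the name 0.052 (0.657). With Large White thick 1 and thin 1 left out, 2 members were called, miR-101 with 1 A and with 2 A, and with them exchanged 1.

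The members next in p did not pass. miR-152 with 2 A was at 0.51 ± 0.17 (edgeR adjusted p = 0.0743), from 2.91% to 5.40% in Pietrain and from 2.45% to 3.32% in Large White. miR-151-3p with 3 A was at 0.32 ± 0.11 (adjusted p = 0.0966). On the lower side miR-191 with 1 A was at -0.19 ± 0.10, miR-30a-5p with 1 A at -0.19 ± 0.13 and miR-125a with 1 A at -0.17 ± 0.14, with adjusted p of 0.323, 0.492 and 0.564. DESeq2 called 2 members, miR-101 and miR-152 with 2 A each.

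Thick fat was then set against thin fat, first breed by breed. In Pietrain, few A-extended sequences were called between thick and thin fat, and less often than among all sequences tested. edgeR called 3 of 76 members, all lower, beside 7.62% of 1601 sequences tested (18.7% had an unadjusted p under 0.05), 3.37% higher and 4.25% lower. The median log2 fold change of the share was -0.22 over members and -0.12 over all sequences.

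miR-152 with 2 A had shares of 2.98%, 3.39%, 3.45% and 2.92% in the 4 thick libraries and 5.40%, 4.79% and 4.12% in the 3 thin ones. Every thick library lay under every thin one, and the log2 fold change was -0.57 ± 0.14 (edgeR adjusted p = 0.0196). miR-152 with 3 A had 0.446%, 0.546%, 0.531% and 0.785% in thick and 1.59%, 0.894% and 0.974% in thin fat (log2 fold change -1.01 ± 0.26, adjusted p = 0.0309). The counts behind the form with 3 A in Pietrain ran from 10 to 53 reads.

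miR-125b with 3 A had 10.6%, 10.7%, 11.2% and 8.38% in thick and 17.2%, 14.1% and 13.7% in thin Pietrain fat, again with no overlap. Its log2 fold change was -0.55 ± 0.13 (edgeR adjusted p = 0.0213). Each of the 3 calls depends on single libraries. That of miR-152 with 2 A is lost without thick 1 or 4 or thin 1 or 2 (adjusted p from 0.053 to 0.0715). miR-125b with 3 A loses it without thick 2 or 4 or thin 1 or 2 (from 0.0506 to 0.0612), and miR-152 with 3 A without thick 1, 2 or 3 or thin 1 or 3 (from 0.0564 to 0.105). Leaving out one library at a time left from 0 to 2 members called, with 0 without thin replicate 1, and tested as a level over library sizes none of the 3 passed (adjusted p from 0.205 to 0.695).

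The share of reads with G in place of a first U, given above by breed, also differed by fat class. It was between 0.732% and 0.788% in thick and between 0.234% and 0.255% in thin libraries. Its part in the 3 calls was not tested. In the authors' deposited table for Pietrain, 0 of 156 A-extended sequences with an adjusted p were called. That table tests levels, and its smallest p among them was 0.00577 for let-7f-5p with 1 A.

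In Large White fat edgeR called 0 of 78 members and 0% of 1573 sequences, with 2 members and 2.61% of sequences at an unadjusted p under 0.05. DESeq2 and limma called 0 as well, and so did edgeR with thick 1 and thin 1 exchanged or left out. miR-125b with 1 A had the smallest p, at 73.0%, 73.4%, 82.7% and 80.7% in thick and 84.0%, 84.5%, 90.4% and 89.0% in thin fat. The groups did not overlap, yet the log2 fold change of -0.17 ± 0.07 did not pass (edgeR adjusted p = 0.999). As a level over library sizes it was 0.12. miR-100 with 2 A was at -0.33 ± 0.15 and miR-148b-3p with 1 A at -0.37 ± 0.17, while let-7e with 1 A was at 0.23 ± 0.15, miR-152 with 3 A at 0.25 ± 0.18 and miR-92a with 2 A at 0.19 ± 0.15.

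In Hampshire fat edgeR called 0 of 63 members and 0% of 1151 sequences, with 4 members and 4.6% of sequences at an unadjusted p under 0.05, and DESeq2 and limma called 0. Thin fat had 2 libraries only. The median log2 fold change over members was 0.14, against -0.01 over all sequences. It was 0.13 over sequences extended with mixed bases, 0.08 with U, 0.01 with C and -0.03 with G. Over sequences that do not extend the leading one it was -0.04. The largest value was miR-193a-5p with 1 A, at 1.12 ± 0.30 (edgeR adjusted p = 0.845), higher in 5 of 5 thick libraries than the thin mean. Its counts were 7 and 8 reads in the thin libraries and 6 in thick replicate 2, at or near the smallest count listed. miR-10b with 2 A was at 0.45 ± 0.19 and miR-151-3p with 3 A at 0.44 ± 0.17. Below 0 were miR-24-3p with 2 A at -0.21 ± 0.17, miR-10a-5p with 1 A at -0.19 ± 0.23 and miR-99a with 1 A at -0.11 ± 0.13. Without thin replicate 2 miR-10a-5p was at 0.21 and miR-99a at 0.024.

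Over all 22 libraries, with breed as a term, edgeR called 0 of 66 members, beside 0.151% of 1322 sequences, 0.0756% higher and 0.0756% lower. No member had an unadjusted p under 0.05, against 90 (6.81%) of all sequences, and DESeq2 and limma called 0 members. The members nearest to a call on the lower side were miR-125b with 2 A, at -0.17 ± 0.10 (95% interval from -0.37 to 0.03), miR-27b-3p with 1 A, at -0.11 ± 0.07, and miR-185 with 1 A, at -0.20 ± 0.12. As a level over library sizes miR-125b with 2 A was at 0.010. On the higher side were miR-146a-5p at 0.25 ± 0.16, let-7e at 0.14 ± 0.11 and miR-28-3p at 0.09 ± 0.07, each with 1 A.

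The interaction of fat class and breed gave 0 calls among 66 members by edgeR, DESeq2 and limma, beside 1.13% of 1322 sequences. At an unadjusted p under 0.05 it had 12 members, and 9.83% of sequences. The 3 smallest were miR-151-3p with 3 A, miR-193a-5p with 1 A and let-7g with 1 A, with adjusted p of 0.142, 0.205 and 0.222. Without Hampshire thin replicate 1 edgeR called 1 member, miR-7134-3p with 2 A (adjusted p = 0.0302), but that leaves 1 thin Hampshire library, which is assumed to vary like the other groups.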

How the data were processed

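Small RNA from subcutaneous fat of 22 pigs was measured as reads per sequence. Per the labels' protocols, a NEBNext kit was used on RNA whose integrity number exceeded 7.5, with single-end reads. According to the submitters' processing notes the tools included FastQC, bcl2fastq and DESeq2, with assembly Sscrofa10.2; trimmer, aligner and miRNA annotation are not given in the sources used here. The authors deposited a table of raw counts per sequence and miRNA name for each breed, and tables of log2 fold changes and p-values per sequence.

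The 3 count tables were joined, a sequence missing from a table was set to 0, and 80 sequences with no name (0.0480% of reads) were left out. A share is the count of a sequence per 100 counts of the leading sequence of its name, given for libraries with at least 100 of these. Fold changes came from edgeR 4.0.16 (robust quasi-likelihood test, R 4.3.3) on every non-leading sequence with a mean count of at least 20 and a leading count of at least 100 in each library of the fit, with the logarithm of the leading count as offset and Benjamini-Hochberg adjustment over all sequences tested (threshold 0.05). Each SE was derived from the F statistic and the log2 fold change. Fat classes were compared within breeds, and over the 22 libraries with a term for breed. Breeds were compared from 6 group means, thick and thin weighted equally. The tests were also run on counts simulated with the fitted spread, which gives no support to any single call. P-values reflect only how far these libraries spread, whose reads carry no molecular identifiers.

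Alternatives were TMM library sizes (level), all other reads of the name as the base, other count limits, 3 in place of 0, DESeq2 1.42.0, limma 3.58.1 (trend, pseudocount 0.5 or 5), summed A extensions, and libraries exchanged or left out. Leaving out the 2 libraries richest in miR-122 was added after seeing the data. The members, the miRNA groups and the marker lists were chosen with earlier results of these data known. Named were the 12 miRNAs with most A-extended reads, the 8 highest and 8 lowest shares among those with at least 10000 leading reads, and miR-122, miR-21, miR-148a-3p, miR-143-3p, miR-26a, miR-10b and let-7 whatever their values. In each comparison the 5 called members of smallest p per direction were named, or, with fewer than 3 called, the 3 of smallest unadjusted p per direction. No coordinates are given.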

Additional observations from a re-analysis of the deposited data

Results flagged for a closer look

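Within groups of 4 or 5 libraries, 193 sets of shares were searched for a library far from the others, and 13 were found, where chance alone gives about 1 in 20. Large White thick replicate 3 had the highest miR-125b share of its group (151.99%), the highest miR-125b form with 3 A (16.0%) and the highest miR-7134-3p share (51.7%). Large White thick replicate 1, the shallowest of its breed, stood apart for miR-23b (0.390%), miR-146a-5p with 1 A (2.75%) and miR-191 with 1 A (7.22%). Pietrain thick replicate 3 was lowest for the miR-27b-3p share (15.0%) and its form with 2 A (1.84%) and highest for miR-26a (0.888%). The other flags were let-7c in Large White thin replicate 2 (5.56%), miR-23b in Hampshire thick replicate 3 (0.233%), miR-127 with 1 A in Hampshire thick replicate 2 (22.7%) and miR-451 in Pietrain thick replicate 2 (0.491%), where 7 reads were the only ones of that sequence.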

How the results depend on the processing

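No paired analysis was possible because replicate numbers are in accession order and mark no shared animal, litter or day. Whether an A matches the hairpin was planned as a split and not run. A count under 6 is unseen, so rare forms have no lower values, and forms over 25 nt are not listed.

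The per-library median share of A (median over libraries 4.72%) was 5.74% from pooled reads, and 4.70% to 4.74% with one library left out. In Pietrain fat, 0 members were called on TMM library sizes or with A extensions summed and 5 with no filter on the mean count, against 3, and 0 to 2 with one library left out. Hampshire against Large White gave 12 with at least 1000 leading reads, where 34 members are tested, and 16 to 26 with one library left out, against 25. Hampshire against Pietrain gave 11 at 1000 leading reads and 16 with extensions summed, where 40 miRNAs are tested, and 24 to 32 with one library left out, against 28. Pietrain against Large White gave 0 on TMM library sizes, at 1000 leading reads, with limma at pseudocount 5 and with extensions summed, 2 with 3 in place of 0, with DESeq2 and without Large White thick 1 and thin 1, 3 with no filter, and 0 to 2 with one library left out, against 1. The interaction gave 1 without the 2 libraries richest in miR-122 and 0 to 1 with one library left out. Leaving out a Hampshire thin library leaves 1, which is assumed to vary like the other groups. The other fat comparisons called 0 throughout. The causes were not tested.

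For named members, on TMM library sizes let-7g turned to -0.56 and -0.64 in Hampshire against Large White and against Pietrain, miR-101 with 2 A to 0.40 against Pietrain (0.021 against all other reads of its name), miR-125b to 0.12 with 1 A in Large White fat and to 0.010 with 2 A over all breeds. In Hampshire fat, leaving out one library moved miR-10a-5p with 1 A between -0.50 and 0.21 and miR-99a with 1 A between -0.23 and 0.024, above 0 without thin replicate 2. Of 478 values of named members under other settings 447 kept direction and side of the threshold, as did 785 of 814 with one library left out. Many of these named members were not called to begin with, so the counts do not measure how stable the calls are. On TMM library sizes, 12 of the 25 members called in Hampshire against Large White passed again, 9 of them in the same direction, and 14 of the 28 against Pietrain, 13 in the same direction.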

Other observations

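Some abundant miRNAs were read with bases other than A at the same place, as values that enter no comparison above. miR-122 had 87.0 reads with G added per 100 leading reads, beside 6.97 with A. miR-127 had 116 with U and miR-152 had 101 with U. miR-30a-5p had no listed U extension beside an A share of 7.58%. miR-27a had more reads with 3 A (560) than with 2 A (542). miR-195, with 4283 leading reads, had an A share of 101%, the only one over 100% besides miR-125b.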
